A study of Mus musculus with 6 samples.

Results

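The enzymes described here build purine nucleotides without taking the amide nitrogen of glutamine. They are the 10 genes Prps1, Prps2, Gart, Paics, Adsl, Atic, Adss, Adssl1, Impdh1 and Impdh2, found by symbol among 40303 gene models of the deposited table, where each matched 1 model. Messenger RNA was sequenced from CT26 tumours, a mouse colon carcinoma line grown under the skin of wild-type BALB/c mice. In the treated group, 3 mice received 50 IU/kg of PEGylated glutaminase, an enzyme that breaks down circulating glutamine, into the peritoneum every 3 days, and in the control group 3 mice received the vehicle, phosphate-buffered saline with 10% glycerol, by the same route. Tumours were collected after 2 injections, 1 library came from each, and the labels state no age or sex of the mice. The study measured glutamine in serum, and those values were not used here.

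De novo purine synthesis assembles the purine ring atom by atom on phosphoribosyl pyrophosphate (PRPP) and ends in inosine monophosphate (IMP), from which adenosine and guanosine monophosphate (AMP and GMP) are made. Glutamine donates nitrogen in the steps of Ppat, Pfas and Gmps, while the enzymes between them use ATP, glycine, bicarbonate, aspartate, formyl-folate or NAD. Proliferating cells, tumour cells among them, rely on this pathway for nucleic acid synthesis and for ATP and GTP.

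The libraries held 16455052 to 16791267 recovered reads in the PEG-glutaminase group and 17380129 to 18051480 in the vehicle group. Values are normalized counts, read counts scaled by a library-specific size factor. Of the colon epithelial markers, Krt20 was abundant, at 2349 to 3652 normalized counts in the PEG-glutaminase tumours and 4317 to 5226 in the vehicle tumours, and Cdx1 was at 0 in all 6. One library stood apart: vehicle 1 held 8948 normalized counts summed over 13 keratinocyte and skin markers, against 101 to 121 in the PEG-glutaminase tumours and 140 and 318 in the other vehicle tumours. Differences below are from limma on log2(value + 1), PEG-glutaminase minus vehicle, with p-values adjusted by Benjamini-Hochberg over the 13557 gene models with a mean of at least 10, and a gene passed at an adjusted p under 0.05. The p-values measure the spread between 3 mice per group. In bulk tumour RNA, fewer cells of a type and less RNA per cell cannot be told apart.

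RefSeq promoter windows on GRCm38.p6, from 250 bases before to 50 bases after the transcript start, were found for all 10 members, with a second window for Impdh1. The 3 windows below are shown because Gart and Atic were the members with the largest positive differences and because Paics was the most abundant member. Capitals mark CACGTG, the E-box bound by MYC and related factors, searched on both strands.
Gart, chr16:91646923-91647222, minus strand: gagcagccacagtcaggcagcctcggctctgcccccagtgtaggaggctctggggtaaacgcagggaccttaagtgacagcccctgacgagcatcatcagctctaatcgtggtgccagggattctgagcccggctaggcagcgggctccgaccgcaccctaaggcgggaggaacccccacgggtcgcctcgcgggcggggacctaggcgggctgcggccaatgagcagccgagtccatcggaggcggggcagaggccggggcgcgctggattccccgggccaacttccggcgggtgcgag
Atic, chr1:71556906-71557205, plus strand: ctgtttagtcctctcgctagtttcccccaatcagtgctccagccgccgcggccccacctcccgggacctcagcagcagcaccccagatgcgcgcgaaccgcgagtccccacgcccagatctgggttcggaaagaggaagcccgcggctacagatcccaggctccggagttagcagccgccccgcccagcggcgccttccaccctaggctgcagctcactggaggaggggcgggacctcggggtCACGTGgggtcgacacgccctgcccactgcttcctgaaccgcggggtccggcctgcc
Paics, chr5:76951052-76951351, plus strand: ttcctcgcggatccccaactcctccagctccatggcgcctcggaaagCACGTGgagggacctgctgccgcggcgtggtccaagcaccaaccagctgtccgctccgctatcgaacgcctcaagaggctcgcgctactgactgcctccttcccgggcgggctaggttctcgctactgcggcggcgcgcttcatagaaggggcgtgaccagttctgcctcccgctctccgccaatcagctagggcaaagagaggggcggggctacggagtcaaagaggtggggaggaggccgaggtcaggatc

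CACGTG was in the windows of 3 members, 7 bases before the start in Atic, 203 before it in Paics and 110 before it in Impdh2, and in 7.15% of 32851 promoter windows of the same length. The amino acid response element core TGATGNAA, a site of ATF4, was in the window of Prps1 alone among the members, 170 bases before the start, and in 3.97% of all windows. The NRF1 motif, a palindrome, was in 0 member windows and in 0.971% of all windows. None of these matches overlapped another.

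Of the 10 members, 9 passed the filter on low values and 1, Impdh2, did not. In PEG-glutaminase tumours 6 of the 9 were higher and 3 were lower, with a median log2 difference of 0.17, where 50.0% of all tested gene models were higher and their median was -4.97e-05. By limma 0 members passed over all genes, against 5 gene models in all (0.0369%). At an unadjusted p under 0.05 there were 5 members, 4 higher and 1 lower, where the share over all tested gene models was 18.4% (8.92% higher and 9.51% lower). That count stayed at 5 when PEG-glutaminase 3 was left out and was 4 when vehicle 2 or vehicle 3 was. It was 3 when PEG-glutaminase 1 was left out, and 2 when either vehicle 1 or PEG-glutaminase 2 was. In the same order, all tested gene models numbered 2511, then 1685 and 2159, then 1939, then 2379 and 1832, against 2498 with every library. DESeq2 on the recovered reads, which called 3.59% of gene models, called 2 members, Gart higher and Adssl1 lower, and edgeR called 0 members and 0 gene models, with 5 and 2554 at an unadjusted p under 0.05. The groups of 3 did not overlap in 5 of the 9 members, 4 higher and 1 lower, where 25.8% of all tested gene models did not overlap, 13.1% higher and 12.7% lower.

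**Figure D1:**
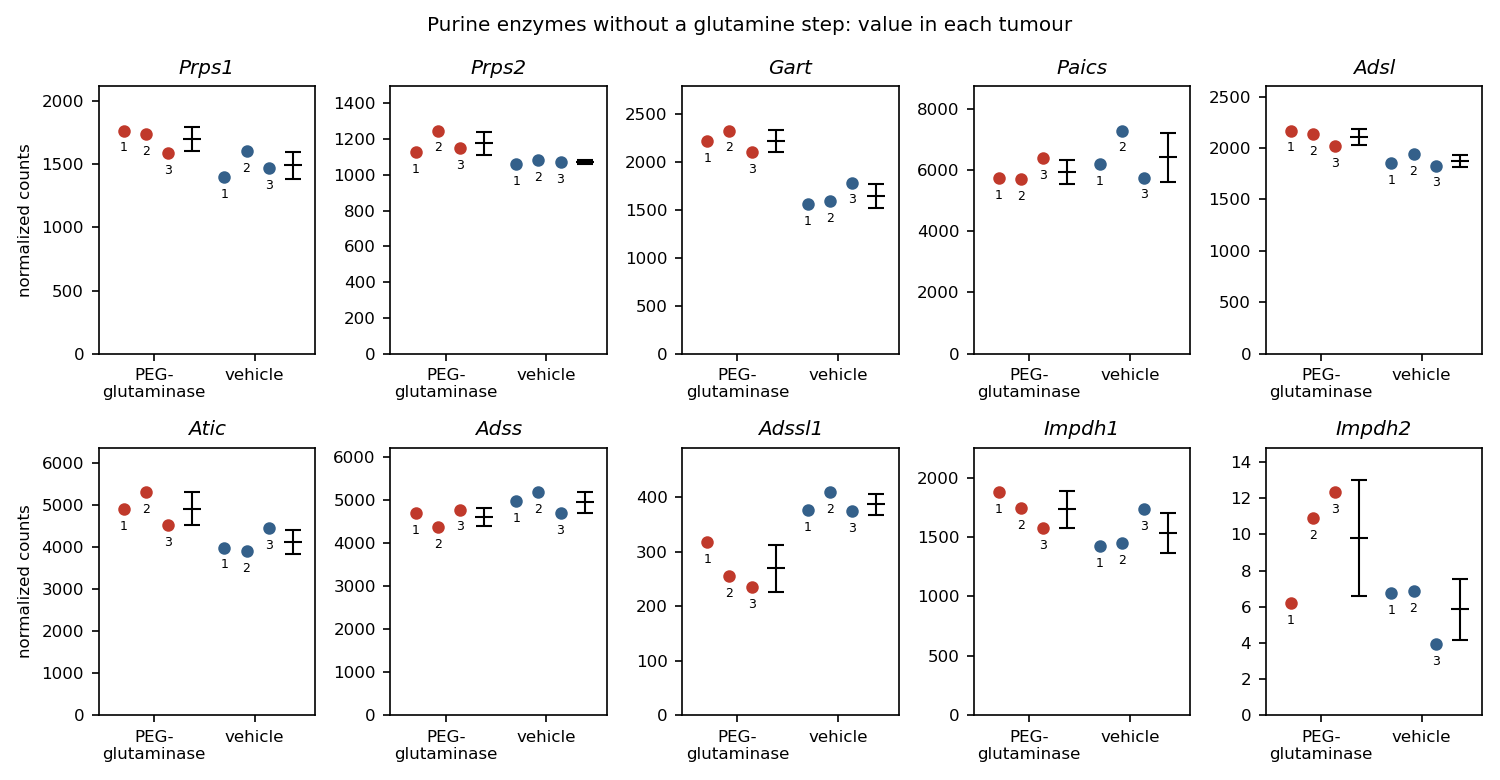
Normalized counts of the 10 members in each tumour, PEG-glutaminase in red and vehicle in blue, with the mouse number under each point and the mean with its SD (n = 3) to the right of each group. Gart, Atic, Adsl and Prps2 lie higher in all 3 PEG-glutaminase tumours than in any vehicle tumour, and Adssl1 lies lower.

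PRPP supply comes first. Prps1 and Prps2 encode the synthetases that make PRPP from ribose 5-phosphate and ATP. Prps1 had 1769, 1742 and 1590 normalized counts in the PEG-glutaminase tumours, against 1400, 1607 and 1474 in the vehicle tumours. The groups overlapped, since PEG-glutaminase 3 lay under vehicle 2. The log2 difference of Prps1 was 0.19 ± 0.08 (SE; limma, adjusted p = 0.269; 95% interval 0.00106 to 0.37).

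Prps2 had 1128, 1247 and 1150 normalized counts in the PEG-glutaminase tumours, against 1058, 1080 and 1070 in the vehicle tumours. All 3 PEG-glutaminase values were higher, by 9.90% on average, and the vehicle tumours lay within an SD of 11.2. The log2 difference was 0.13 ± 0.08 (SE; limma, adjusted p = 0.368; 95% interval -0.0384 to 0.31). Prps1 made up 59.1% ± 1.68 of the summed counts of both synthetases in PEG-glutaminase tumours and 58.2% ± 1.45 in vehicle tumours (SD, n = 3 each; exact permutation test, two-sided, p = 0.5, where the smallest possible is 0.1). This difference of 0.892 percentage points became -0.0783 without PEG-glutaminase 1.

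Prps1l3, a close relative of Prps1, shares 21.5% of the 31-base stretches of its GENCODE M21 transcript with Prps1, and no source used here states the counting of reads that fit both. Prps1l3 had 772, 740 and 773 normalized counts in PEG-glutaminase tumours, against 602, 713 and 610 in vehicle tumours, a log2 difference of 0.25 ± 0.09 (SE; limma, adjusted p = 0.214). It was looked at after the values of Prps1 were seen. Prps1 and Prps2 share 0% of such stretches. The regulatory subunits that associate with the synthetases, Prpsap1 and Prpsap2, stood at 0.19 ± 0.08 and 0.08 ± 0.11 (SE; limma, adjusted p of 0.259 and 0.723), and neither passed.

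IMP assembly follows. Gart encodes a protein with 3 activities, which adds glycine to the growing molecule, transfers a formyl group from folate and closes the first ring. Gart had 2219, 2326 and 2105 normalized counts in the PEG-glutaminase tumours, against 1558, 1591 and 1784 in the vehicle tumours. The lowest PEG-glutaminase tumour lay above the highest vehicle tumour, and the mean was 1.35-fold higher. The log2 difference was 0.43 ± 0.08 (SE; limma, adjusted p = 0.111; 95% interval 0.25 to 0.62), the 45th smallest p of the 13557 gene models. Gart did not pass by limma and rose by DESeq2 (0.43 ± 0.10, SE; adjusted p = 0.00296). With no filter on low values, where limma called 0.586% of gene models, Gart passed at an adjusted p of 0.0352 and was the 1 member called. Leaving out 1 library at a time put it at 0.39 to 0.49, with an adjusted p of 0.0726 to 0.293. Without vehicle 1, the library with skin RNA, the limma values were 0.39 for Gart, 0.23 for Atic, 0.16 for Adsl, 0.14 for Prps1 and -0.55 for Adssl1.

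Paics, which adds carbon dioxide and then aspartate, was the most abundant member by read count. Its values were 5748, 5711 and 6411 normalized counts in PEG-glutaminase tumours, against 6204, 7301 and 5763 in vehicle tumours. The groups overlapped throughout, and vehicle 2 was the highest. On the log2 scale Paics differed by -0.10 ± 0.10 (SE; limma, adjusted p = 0.605; 95% interval -0.33 to 0.12), and it stood at -0.00756 without vehicle 2 and at -0.18 without vehicle 3.

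Adsl removes fumarate after the aspartate step, and does so again in the AMP branch. It had 2169, 2134 and 2016 normalized counts in PEG-glutaminase tumours, against 1853, 1938 and 1828 in vehicle tumours. The groups did not overlap, and the mean was 12.5% higher. On the log2 scale Adsl differed by 0.17 ± 0.07 (SE; limma, adjusted p = 0.255; 95% interval 0.00603 to 0.33).

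Atic carries out the last 2 steps to IMP, a second formyl transfer from folate and the closing of the ring. It had 4885, 5297 and 4516 normalized counts in PEG-glutaminase tumours, against 3980, 3904 and 4447 in vehicle tumours. All 3 PEG-glutaminase values were higher, though PEG-glutaminase 3 lay close to vehicle 3. On the log2 scale Atic differed by 0.25 ± 0.09 (SE; limma, adjusted p = 0.197; 95% interval 0.05 to 0.45), and it stood at 0.17 without vehicle 1 and PEG-glutaminase 2. DESeq2 did not call Atic (adjusted p = 0.143).

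**Figure D2:**
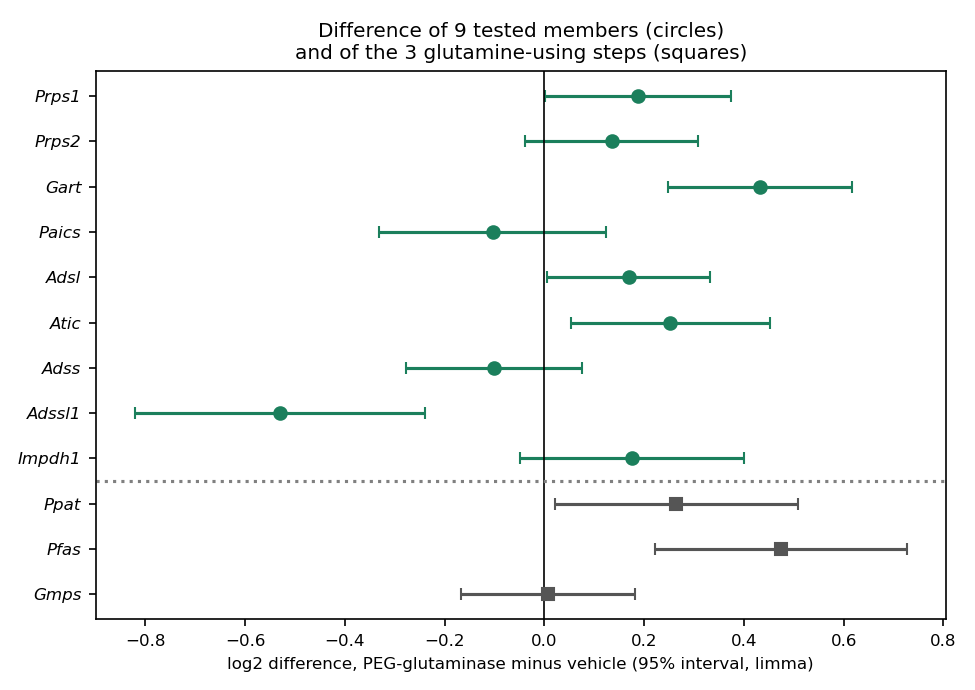
Log2 difference of PEG-glutaminase minus vehicle tumours with its 95% limma interval for the 9 tested members (circles) and the 3 glutamine-using steps (squares). The intervals of Gart (0.25 to 0.62), Pfas (0.22 to 0.73), Atic, Ppat, Adsl and Prps1 lie above 0, and that of Adssl1 (-0.82 to -0.24) lies below it. Those of Prps2, Paics, Adss, Impdh1 and Gmps span it. The intervals are not adjusted for the number of gene models, and none of these genes passed by limma.

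The AMP branch adds aspartate to IMP. Adss, now named Adss2, encodes the synthetase of most tissues, and Adssl1, now named Adss1, the form best known from muscle. Adss had 4693, 4384 and 4781 normalized counts in PEG-glutaminase tumours, against 4972, 5189 and 4696 in vehicle tumours. The groups overlapped, and the log2 difference was -0.10 ± 0.08 (SE; limma, adjusted p = 0.51; 95% interval -0.28 to 0.08). Leaving out 1 library put it at -0.14 to -0.0631.

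Adssl1 was the member with the largest difference in either direction among the 9 tested. It had 318, 255 and 235 normalized counts in PEG-glutaminase tumours, against 377, 409 and 374 in vehicle tumours. Every PEG-glutaminase value was lower than every vehicle value, and the mean was 0.697 times that of vehicle tumours. The log2 difference was -0.53 ± 0.13 (SE; limma, adjusted p = 0.123; 95% interval -0.82 to -0.24), the 248th smallest p. Adssl1 did not pass by limma and fell by DESeq2 (-0.52 ± 0.16, SE; adjusted p = 0.0378). Leaving out 1 library put the limma value at -0.66 to -0.44.

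Adssl1 made up 6.35%, 5.51% and 4.68% of the summed counts of the synthetase pair in PEG-glutaminase tumours, against 7.04%, 7.31% and 7.37% in vehicle tumours. The shares did not overlap, and their difference was -1.73 percentage points (exact permutation test over 6 libraries, two-sided, p = 0.1, the smallest possible). Per length of the longest transcript, the share was 8.15% in PEG-glutaminase tumours and 10.6% in vehicle tumours.

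Because Adssl1 is known from muscle, 14 skeletal muscle markers were read beside it. Their summed level was 216, 1918 and 146 normalized counts in PEG-glutaminase tumours, against 657, 310 and 1234 in vehicle tumours, so the groups overlapped. PEG-glutaminase 3 was lowest of the 6 tumours in both the muscle sum and Adssl1, PEG-glutaminase 2 was highest in the muscle sum with less Adssl1 than any vehicle tumour, and vehicle 2 was highest in Adssl1 with the lowest muscle sum of the vehicle tumours. The part of muscle RNA in the Adssl1 difference was not tested. By the mean of log2(value + 1) all 12 tested muscle markers were lower in PEG-glutaminase tumours (median log2 difference -0.99), 0 of them at an unadjusted p under 0.05 by limma and 0 called by DESeq2 or edgeR. By the ratio of mean normalized counts Myh2 (2.92), Myh1 (2.13), Mylpf (1.51), Myl1 (1.07) and Myh4 (1.01) were above 1, each with its highest value in PEG-glutaminase 2, so the direction of these markers depended on the scale.

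**Figure D3:**
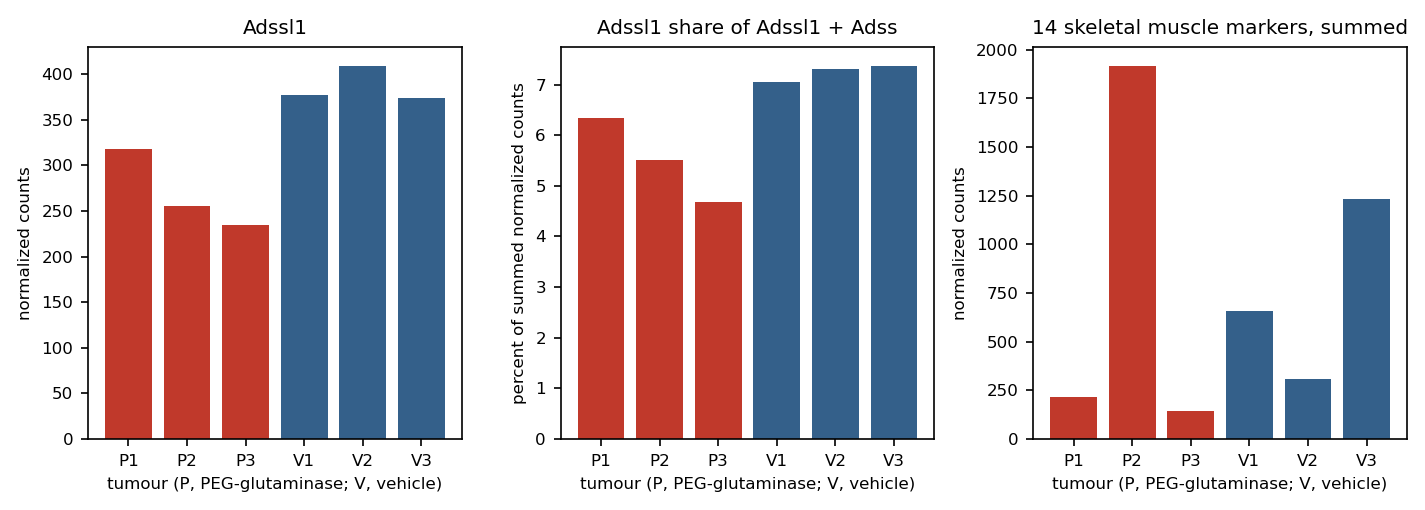
Normalized counts of Adssl1, its percent share of Adssl1 plus Adss, and the summed normalized counts of 14 skeletal muscle markers in each tumour (P, PEG-glutaminase; V, vehicle). Adssl1 and its share are lower in P1 to P3 than in V1 to V3, while the muscle sum is highest in P2 (1918) and lowest in P3 (146).

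The GMP branch begins with IMP dehydrogenase, which oxidizes IMP with NAD and controls the supply of guanine nucleotides. Impdh1 had 1881, 1749 and 1574 normalized counts in PEG-glutaminase tumours, against 1429, 1450 and 1734 in vehicle tumours. The groups overlapped, since vehicle 3 lay above PEG-glutaminase 3. The log2 difference was 0.18 ± 0.10 (SE; limma, adjusted p = 0.365; 95% interval -0.0489 to 0.40), and it stood at 0.12 without PEG-glutaminase 1 and at 0.27 without vehicle 3.

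Impdh2, known as the form induced in dividing cells, was almost unread in every tumour. It had 6.21, 10.9 and 12.3 normalized counts in PEG-glutaminase tumours, which are 6, 11 and 12 reads, against 6.76, 6.87 and 3.92 in vehicle tumours, which are 7, 7 and 4 reads. The groups overlapped, and with no filter the log2 difference was 0.64 ± 0.50 (SE; limma, adjusted p = 0.624). Impdh1 therefore held 99.2% to 99.7% of the pair's counts in PEG-glutaminase tumours and 99.5% to 99.8% in vehicle tumours (difference -0.186 percentage points; exact permutation test, two-sided, p = 0.3).

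The annotation around Impdh2 limits what this low value says. In GENCODE M21 the pseudogene Impdh2-ps holds 77.3% of the 31-base stretches of the longest Impdh2 transcript, but its own model had 0 normalized counts in all 3 PEG-glutaminase tumours and 1.93, 0 and 0 in the vehicle tumours. Impdh2 also overlaps Ndufaf3 on the opposite strand there. Ndufaf3 had 156 to 161 normalized counts in PEG-glutaminase tumours and 190 to 203 in vehicle tumours. No source used here states the rule for reads that fit several places, and its part in the Impdh2 value was not tested.

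Levels of different genes were compared per kilobase of the longest transcript. In vehicle tumours Paics stood highest, at 2588 ± 319 normalized counts per kilobase (SD, n = 3), followed by Adss at 1787 ± 89.2 and Atic at 1445 ± 103. Prps1 stood at 760 ± 53.4, Impdh1 at 591 ± 65.7, Adsl at 505 ± 15.7 and Gart at 467 ± 34.8 per kilobase. Prps2 at 289 ± 3.03 and Adssl1 at 212 ± 10.8 closed the order of the tested members. The gap of Adsl to Gart was about the size of their spread, and those between the other neighbours were larger than either gene's SD.

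In PEG-glutaminase tumours the order changed at 2 places. Atic at 1722 ± 137 normalized counts per kilobase and Adss at 1667 ± 75.3 now differed by less than their spread (SD, n = 3). Gart at 630 ± 31.5 stood above Adsl at 568 ± 21.5 and within the spread of Impdh1 at 667 ± 59.2. Paics remained highest, at 2400 ± 159 per kilobase.

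**Figure D4:**
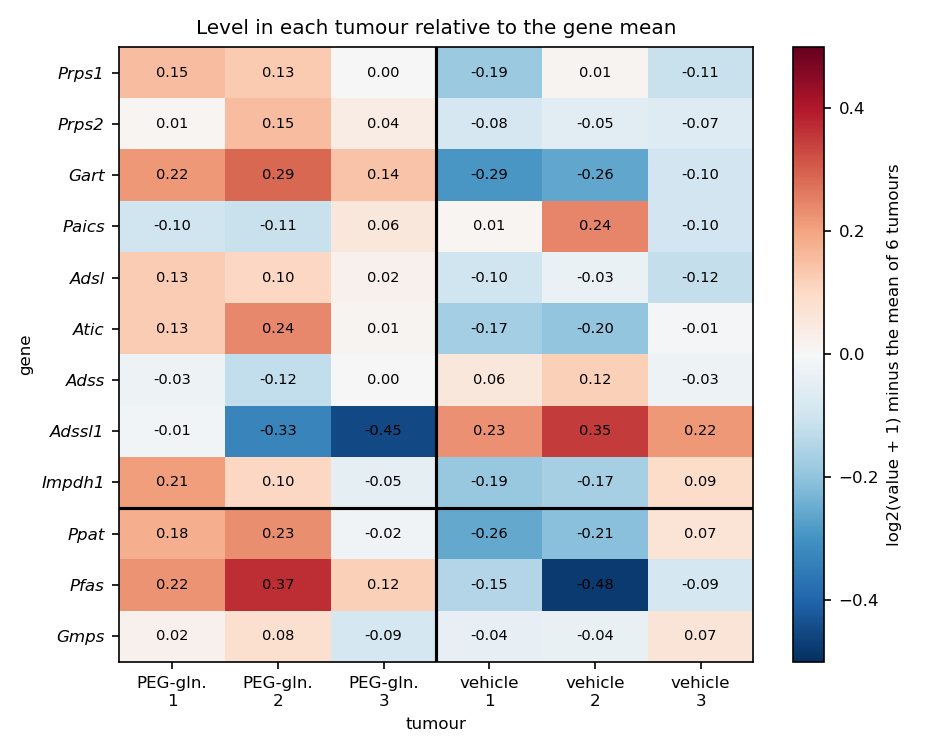
Log2(value + 1) of each gene in each tumour minus the mean of the 6 tumours, for the 9 tested members above the line and the 3 glutamine-using steps below it. Gart, Adsl, Atic and Prps2 are above their mean in PEG-glutaminase 1, 2 and 3 and below it in the vehicle tumours, and Adssl1 shows the opposite. Prps2 is above its mean only narrowly in PEG-glutaminase 1. Values in PEG-glutaminase 3 lie nearer to 0 for most members.

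The tumours of a group were not alike. The median of the tested members, relative to each gene's mean over the 6 tumours, was 0.13, 0.10 and 0.0119 on the log2 scale in PEG-glutaminase 1, 2 and 3, against -0.0999, -0.0346 and -0.0660 in vehicle 1, 2 and 3. PEG-glutaminase 3 thus lay closest to the vehicle tumours. Of the 9 tested members, 3 were highest in PEG-glutaminase 1, 3 in PEG-glutaminase 2 and 3, namely Paics, Adss and Adssl1, in vehicle 2. Vehicle 1 was the lowest tumour for 4 members.

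The 3 glutamine-using steps were read beside the members. Pfas, which makes the first amidine of the ring, had 1765, 1954 and 1640 normalized counts in PEG-glutaminase tumours, against 1367, 1084 and 1422 in vehicle tumours. The groups did not overlap, and the log2 difference was 0.47 ± 0.11 (SE; limma, adjusted p = 0.122), a value that did not pass by limma and was called by DESeq2 (adjusted p = 0.0174) and by limma with no filter (adjusted p = 0.0486). Ppat, which commits PRPP to purine synthesis, stood at 0.26 ± 0.11 (SE; limma, adjusted p = 0.239). Gmps, which makes GMP, stood at 0.00706 ± 0.08 (SE; limma, adjusted p = 0.97), with 1894, 1972 and 1755 normalized counts in PEG-glutaminase tumours, against 1817, 1820 and 1954 in vehicle tumours. Of the 3 steps that use glutamine, 3 were thus higher and 0 lower, Gmps by 0.00706 only. Of the 9 tested members, 6 were higher and 3, namely Paics, Adss and Adssl1, were lower. No test of one set against the other was made.

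Paics and Ppat sit side by side. Their RefSeq transcripts start 276 bases apart on opposite strands of GRCm38.p6, and the genes overlap there. No source used here states a strand setting, and without one reads from the shared bases cannot be told apart. Ppat had 1089, 1128 and 946 normalized counts in PEG-glutaminase tumours, against 803, 829 and 1007 in vehicle tumours. In each of the 6 tumours Paics and Ppat lay on opposite sides of their own means, in vehicle 1 by a narrow margin for Paics. Gart starts 852 bases from Son, a splicing factor gene on the opposite strand. Son had 4845, 4783 and 4578 normalized counts in PEG-glutaminase tumours, against 4567, 3421 and 4147 in vehicle tumours, a log2 difference of 0.24 ± 0.11 (SE; limma, adjusted p = 0.267).

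By the root mean square distance of centred log2 values over the 6 tumours, the tested genes most like Gart were Umps (0.0289), Ifrd2 (0.0302) and Parp1 (0.0340), where Gart itself lay 0.23 from its own mean. Umps, which completes uridine monophosphate, had 1528, 1660 and 1494 normalized counts in PEG-glutaminase tumours, against 1123, 1124 and 1215 in vehicle tumours. The nearest to Atic were Klhdc4 (0.0199), Gspt1 (0.0270) and Ncbp1 (0.0272), and the nearest to Paics were Ptges (0.0286), Acy3 (0.0319) and Pnpla8 (0.0324). Adssl1 had less close neighbours, Selenom (0.0727), Camta1 (0.0801) and Zfp983 (0.0822). These distances describe 6 libraries and include the difference between the groups.

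Folate enzymes supply the formyl groups that Gart and Atic use. The list read here also holds formyl-folate dehydrogenases, Aldh1l2 among them, which remove formyl groups. Of 9 listed genes, all tested, 7 were higher in PEG-glutaminase tumours, with a median log2 difference of 0.30 and 0 passing by limma or edgeR. At an unadjusted p under 0.05 by limma there were 6, all higher, where the share over all tested gene models was 18.4%. The members of smallest p were Shmt1, which makes the one-carbon unit from serine in the cytosol, at 0.45 ± 0.09 and Aldh1l2, a mitochondrial formyl-folate dehydrogenase, at 0.68 ± 0.14 (SE; limma, adjusted p of 0.112 and 0.114). DESeq2 called 4 of the 9 higher, both of these and Mthfd1 among them, where it called 3.59% of all tested gene models. Mthfd1 was named after its values were seen. With no filter limma called Shmt1, Aldh1l2 and Mthfd1 as well (adjusted p of 0.0474, 0.0295 and 0.0486). Mthfd1, which makes the formyl-folate of the cytosol, had 2844, 3078 and 2717 normalized counts in PEG-glutaminase tumours, against 2120, 1982 and 2382 in vehicle tumours. The groups did not overlap, which held for 7 of the 9 listed genes and for 25.8% of all tested gene models.

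Purine salvage, which reuses bases and nucleosides, had a median log2 difference of 0.0408 over the 7 tested of 9 listed genes. Of these, 4 were higher and 3 lower. At an unadjusted p under 0.05 there was 1 gene, where the share over all tested gene models was 18.4%. That gene was Dck, a deoxynucleoside kinase, at 0.37 ± 0.09 (SE; limma, adjusted p = 0.122), which DESeq2 called higher, and the next by p was Dguok, the mitochondrial deoxyguanosine kinase, at -0.17 ± 0.12 (SE; limma, adjusted p = 0.457). Hprt and Aprt, the base-salvaging transferases, stood at -0.0582 ± 0.08 and 0.0408 ± 0.09 (SE; limma, adjusted p of 0.735 and 0.83), named after their values were seen. Genes of nucleotide interconversion had a median of 0.21 over the 15 tested of 16 listed, 11 higher and 4 lower. At an unadjusted p under 0.05 there were 5, all higher, where 8.92% of all tested gene models were higher at that level. None was called by limma, DESeq2 or edgeR. Ampd2, an AMP deaminase, stood at 0.37 ± 0.11 and Nme4, a mitochondrial nucleoside diphosphate kinase, at 0.90 ± 0.27 (SE; limma, adjusted p of 0.141 and 0.152).

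Purine breakdown and dephosphorylation genes had a median log2 difference of -0.12 over the 6 tested of 7 listed, 2 higher and 4 lower. At an unadjusted p under 0.05 there were 3, where the share over all tested gene models was 18.4%, and 0 passed by limma or edgeR. DESeq2 called 3.59% of all tested gene models. Gda, guanine deaminase, stood at 0.69 ± 0.22 and Samhd1, a deoxynucleotide triphosphatase, at -0.43 ± 0.15 (SE; limma, adjusted p of 0.187 and 0.189), and DESeq2 called the first higher and the second lower. Samhd1 had 4521, 3804 and 4736 normalized counts in PEG-glutaminase tumours, against 5991, 4760 and 7044 in vehicle tumours. The lowest vehicle value exceeded the highest PEG-glutaminase value by a narrow margin.

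Several marker groups were read beside these differences. Over all tested gene models, 18.4% were at an unadjusted p under 0.05 by limma (8.92% higher and 9.51% lower), and DESeq2 called 3.59%. All 20 proliferation markers were higher in PEG-glutaminase tumours (median log2 difference 0.29, 12 at an unadjusted p under 0.05, 0 passing by limma or edgeR, 3 called by DESeq2), with a summed level of 77091 to 90895 normalized counts in PEG-glutaminase tumours and 64542 to 70074 in vehicle tumours. The highest sum was in PEG-glutaminase 2, which was also highest for Gart, Atic and Prps2. Prps1, Adsl and Impdh1 were highest in PEG-glutaminase 1, where the sum was 77091, below 77759 in PEG-glutaminase 3. Paics, Adss and Adssl1 were highest in vehicle 2, where the sum was lowest (64542). T and NK cell markers, 15 of 15 lower (median -1.59, 4 at an unadjusted p under 0.05, 0 passing by limma or edgeR, 2 called by DESeq2), summed to 1796 to 4890 normalized counts in PEG-glutaminase tumours and 6025 to 6681 in vehicle tumours. Colon epithelial markers summed to 2649 to 3997 normalized counts in PEG-glutaminase tumours and 4791 to 5488 in vehicle tumours, nearly all of it Krt20. Of 8 tested epithelial markers 2 were higher and 6 lower (median -0.23), with 1 higher and 3 lower at an unadjusted p under 0.05, 0 passing by limma or edgeR and 1 called lower by DESeq2. Macrophage markers summed to 50254 to 56294 normalized counts in PEG-glutaminase tumours and 42668 to 57969 in vehicle tumours, so the groups overlapped. Of the 10 macrophage markers 6 were higher and 4 lower. At an unadjusted p under 0.05 there were 2, both higher, with 0 passing by limma or edgeR and 1 called higher by DESeq2. Fibroblast markers overlapped too, with sums of 59787 to 76041 in PEG-glutaminase tumours and 53502 to 72540 in vehicle tumours. Of the 10 fibroblast markers 4 were higher and 6 lower, with 1 lower at an unadjusted p under 0.05 and 0 called by limma, edgeR or DESeq2. The part of these groups in the members' differences was not tested.

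Differences also varied with transcript length. The median log2 difference was -0.10 in the 3370 tested gene models with the shortest transcripts (up to 2059 bases) and 0.0885 in the 3367 with the longest (over 4709 bases). Gart has a longest transcript of 3518 bases, Atic 2845, Paics 2482 and Adssl1 1819. After subtraction of this trend, Gart stood at 0.42, Atic at 0.27, Paics at -0.0734 and Adssl1 at -0.47. Prps1, with a longest transcript of 1965 bases, moved from 0.19 to 0.24 (limma, adjusted p = 0.14). Impdh1 stood at 0.20, Adsl at 0.15, Prps2 at 0.12 and Adss at -0.0776. No member was past the limma threshold.

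The authors' deposited table holds its own comparison. In the authors' deposited table the log2 fold change was 0.35 for Gart (adjusted p = 0.00792) and -0.45 for Adssl1 (adjusted p = 0.0436), the 2 members past 0.05, where 3.94% of its gene models with an adjusted p were. Its mean signal came within 0.1% of the mean of the 6 libraries for 4.03% of gene models with a mean of at least 10, and no source used here states which libraries entered that comparison.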

How the data were processed

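The deposited table gives, per BALB/cJ gene model, a signal in normalized counts for each of 6 libraries, read counts that the authors divided by a size factor. Per the submitters' processing notes, FastQC, STAR, featureCounts, DESeq2 and DESeq were used; no source used here states versions, a genome build or strandedness. The same deposited table holds the authors' log2 fold change, its standard error and Wald score, and p-values. Models repeated in the table were used once, leaving 40303; 2902 without a symbol held 0.13% to 0.214% of reads.

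Each value divided by the smallest step of its library came out whole within 0.01 for 100% of models, so reads were recovered; for PEG-glutaminase 2, whose step lies near 1, this rests on the values alone. Values are normalized, so limma 3.58.1 in R 4.3.3 on log2(value + 1) was the main test (mean trend, robust; two-sided), without the replicate number. DESeq2 1.42.0 and edgeR 4.0.16 were run on recovered reads. The log2(value + 1) scale understates changes of low genes. Of these, limma was tried on simulated data with known changes, in 3 datasets. Genes set to differ 1.5-fold were called in 52% of cases, 2-fold in 68.7% and 3-fold in 88.5%, with 10.3% false calls.

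Transcript lengths came from GENCODE M21 through Ensembl identifiers (99.4% of tested models) and promoters from RefSeq on GRCm38.p6, another assembly than the gene models. The members and lists were chosen with earlier results of these data known. Named were all members, the 3 glutamine-using steps, called genes or else the 2 of smallest p of each pathway list, and the 3 nearest genes of 4 members. The length correction was chosen after seeing the data. One gene of a pathway list is not reported by name here.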

Additional observations from a re-analysis of the deposited data

How the results depend on the processing

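All 9 tested members kept their direction under each of the 19 alternatives run (a pseudocount of 0.5 or of 5, filtering off or set to a mean of 50, edgeR with 2 scalings, DESeq2, limma-voom, 2 other scalings within limma, the replicate block, each library left out, vehicle 1 and PEG-glutaminase 2 left out together, and the length correction). The changes of filter and the replicate block leave a log2 difference as it was, so these could not reverse a direction. Nor could leaving out libraries or changing the pseudocount do so for the 5 members whose groups did not overlap. Paics came nearest to 0, at -0.00756 without vehicle 2. The number of members called was 1 with no filter and 2 with DESeq2, against 0 otherwise. Their median log2 difference was 0.12 without vehicle 1 and PEG-glutaminase 2. The gene models called numbered 136 with no filter, 487 with DESeq2, 0 with either edgeR scaling, 3 without vehicle 1 and PEG-glutaminase 2, and 0 to 25 with 1 library left out. Leaving out PEG-glutaminase 1, vehicle 1 or vehicle 2 gave 0 (limma, with 1939, 2379 and 1685 at an unadjusted p under 0.05), leaving out PEG-glutaminase 2 gave 20 and PEG-glutaminase 3 gave 25. Both edgeR scalings had 2554 and 2549 at an unadjusted p under 0.05. The cause was not tested. The Prps1 share differed by -0.0783 percentage points without PEG-glutaminase 1, and by 0.253 to 1.68 without 1 of the other libraries. With the number as a replicate block 1 gene model and 0 members were called. The labels number the tumours but state no pairing. Deviations from the group mean of same-numbered tumours correlated at -0.13, -0.21 and -0.22 across genes, each lower than with the other numbers. Deviations within a group sum to 0, which ties these correlations to each other, so they do not settle whether tumours were paired. Members with few reads limit precision, above all Impdh2 with 4 to 12 reads per library.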
